A study of Homo sapiens with 12 samples.

Results

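The nuclear genes for subunits of mitochondrial complex I were followed through 4 treatments of HEK293T cells, an established human embryonic kidney line that expresses the SV40 large T antigen. Members were taken by symbol: every entry of the deposited expression table named NDUFA, NDUFB, NDUFC, NDUFS or NDUFV followed by a number, plus NDUFAB1. This gave 38 genes of 56337 distinct gene entries, with no assembly factor among them. The 4 groups, with 3 libraries each, were FAC+BafA1 (ferric ammonium citrate, a soluble iron salt, at 0.1 mg/ml for 24 h, then bafilomycin A1, a blocker of the proton pump of lysosomes, at 10 nM for 24 h), BafA1 (10 nM, no iron salt), FAC (0.1 mg/ml, no BafA1) and control (neither agent). All groups were the same line, labelled wild type, in RPMI with 10% serum. Libraries of a group are numbered, with no word on whether each was grown apart, and p-values therefore reflect only the spread among these libraries, which may be technical.

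Complex I passes electrons from NADH to ubiquinone and pumps protons across the inner mitochondrial membrane. Its peripheral arm, in the matrix, carries the flavin and a chain of iron-sulfur clusters, while its membrane arm holds the proton pumps. Nuclear DNA encodes the core of the peripheral arm and all accessory subunits, and mitochondrial DNA encodes the core of the membrane arm. Iron is needed to build the clusters, and the transcripts of the cluster-bearing subunits can be set beside those of subunits with no cluster.

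By role, 5 members bear iron-sulfur clusters in the core (NDUFV1, NDUFV2, NDUFS1, NDUFS7 and NDUFS8) and NDUFS3 is a core subunit with no cluster. Another 9 are accessory subunits of the peripheral arm (NDUFA2, NDUFA5, NDUFA6, NDUFA7, NDUFA9, NDUFA12, NDUFS4, NDUFS6 and NDUFV3). The accessory subunits of the membrane arm were 20 (NDUFA1, NDUFA3, NDUFA8, NDUFA10, NDUFA11, NDUFA13, NDUFB1 to NDUFB11, NDUFC1, NDUFC2 and NDUFS5). NDUFAB1 is the mitochondrial acyl carrier protein, which sits in the complex at more than 1 place and also serves in lipoate and iron-sulfur cluster synthesis. NDUFA4 keeps its complex I name although it is now assigned to cytochrome c oxidase.

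Levels are FPKM, fragments scaled to transcript length and library size, a unit per length in which members can be compared with each other. Between 13244 and 13597 genes reached 1 FPKM in a library, and its depth was estimated at 34.5 to 38 times 10 to the power of 6 fragments by the steps between low values. Of 8 genes typical of HEK293 cells, 7 averaged at least 1 FPKM, PAX2 being the exception. Of the markers of other cells, 0 of 6 for keratinocytes (KRT6A listed at 0), 1 of 6 for blood (HBB listed at 0) and 1 of 6 for fibroblasts (COL1A1) did so. In 304 entries every library without FAC stood at 0 while those with FAC had at least 1 FPKM, and in 323 entries the reverse held. No member was such an entry, but NDUFA9 and NDUFA13 overlap 1 each on the same strand, so comparisons that cross from libraries without FAC to libraries with it are given as secondary. Low values lay near whole numbers of fragments less often in the 6 libraries without FAC (51.4% to 54.8%) than in the 6 with it (63.5% to 67%). Whether both sets were quantified with the same annotation and settings is not stated in the labels, and the part of this in comparisons across FAC was not tested. Nor was its part in the later comparison of the BafA1 change with FAC and the change without it, which uses both sets.

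All 38 members averaged at least 1 FPKM and entered the test, among 13682 genes in all. The members were highly expressed, with a median member at 106 FPKM in FAC+BafA1, 76.6 in BafA1, 113 in FAC and 113 in control libraries. The median tested gene had 12.2 FPKM in FAC+BafA1, 12.1 in BafA1, 11.8 in FAC and 11.9 in control libraries. NDUFS5, an accessory subunit on the outer face of the membrane arm, was the highest member in every group. NDUFV3, an accessory subunit of the NADH-binding module, was the lowest in FAC+BafA1, FAC and control libraries, and NDUFS6 was the lowest in BafA1 libraries. The ratio of the highest to the lowest member was 12.1 in FAC+BafA1, 6.17 in BafA1, 12.3 in FAC and 12.4 in control libraries, so the members spanned a narrower range in BafA1. Replicates were close, with a median coefficient of variation over the 38 members of 2.81% in FAC+BafA1, 3.1% in BafA1, 4.08% in FAC and 5.21% in control libraries.

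**Figure D1:**
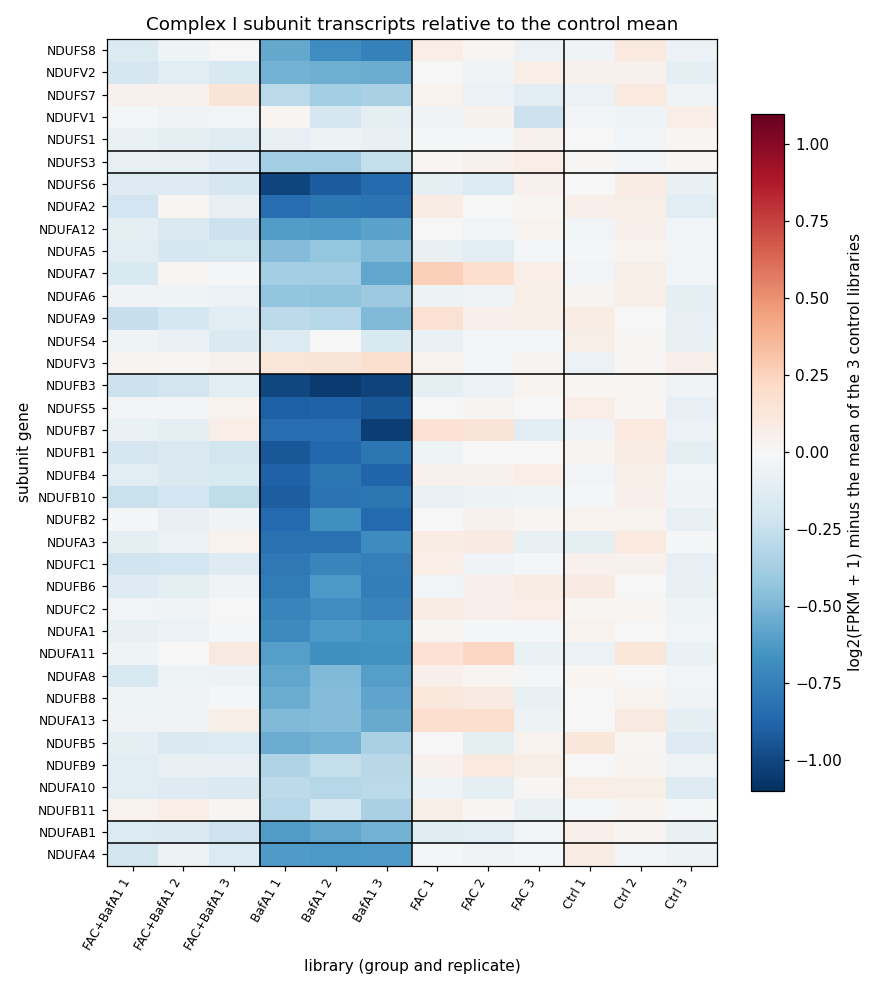
Each row is 1 of 37 of the 38 members, grouped by role, and each column 1 of the 12 libraries in the order FAC+BafA1, BafA1, FAC and control; colour shows log2(FPKM + 1) minus the mean of the 3 control libraries. The 3 BafA1 columns are the low ones for most members, while NDUFV3, NDUFS1, NDUFV1 and NDUFS4 stay near the control mean.

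BafA1 without the iron salt was compared with control first. Most nuclear genes of the set were lower in BafA1: 35 of 38 members fell, 1 rose (NDUFV3) and 2 were not called (NDUFV1 and NDUFS4). Over all 13682 tested genes 67.1% were called at an adjusted p under 0.05, 37.6% lower and 29.5% higher. Higher genes were 44% of these calls, and 51% when libraries were scaled by median of ratios. The median log2 change of the members was -0.56, with a range of -1.03 to 0.15, while the median of all tested genes was -0.04. A log2 change under -0.5 was reached by 23 of 38 members and by 16% of all tested genes. Changes are differences of log2(FPKM + 1), which understate those of low genes, and since these are bulk samples, fewer cells with a transcript and less of it per cell cannot be told apart. The largest falls were in accessory subunits, and the smallest called one was in the core subunit NDUFS1.

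The iron-sulfur subunits moved by unequal amounts: 4 of 5 fell, with a median log2 change of -0.35. NDUFS8, which carries clusters next to the quinone site and lies at chr11:68030617-68036644 (GRCh38, plus strand), had 64.2, 59 and 56.5 FPKM in BafA1 libraries and 92.8, 102.6 and 91.3 FPKM in control libraries. Every BafA1 value of NDUFS8 was below every control value, and it fell (log2 change -0.67 ± 0.06 SE, adjusted p = 9.28e-07). NDUFV2, which carries a cluster beside the NADH site, had 63.65, 62.8 and 62.55 FPKM in BafA1 libraries against 94.5, 95 and 85.7 FPKM in control libraries. The NDUFV2 groups did not overlap, and it fell (log2 change -0.53 ± 0.04 SE, adjusted p = 2.87e-07); its gene is at chr18:9102630-9134345, plus strand. NDUFS7, which holds the last cluster before ubiquinone, had 48.7, 46 and 46.95 FPKM in BafA1 libraries and 57.4, 64.9 and 58.7 FPKM in control libraries. Its 3 BafA1 values lay under its 3 control values by a smaller margin (log2 change -0.35 ± 0.05 SE, adjusted p = 0.000103).

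The 2 largest members of the iron-sulfur group by coding length behaved otherwise. NDUFV1, which binds NADH and the flavin, had 126.7, 109.8 and 116.6 FPKM in BafA1 libraries and 122.55, 120.6 and 131.6 FPKM in control libraries. These groups overlapped, and no change was called (log2 change -0.09 ± 0.07 SE, adjusted p = 0.277, 95% interval -0.23 to 0.06). NDUFS1, the largest subunit, with several clusters, had 60.65, 62 and 60.85 FPKM in BafA1 libraries and 64.7, 63.2 and 65.6 FPKM in control libraries. The NDUFS1 groups did not overlap, and a small fall was called (log2 change -0.08 ± 0.03 SE, adjusted p = 0.043), but 13 of 20 other settings gave no call, with adjusted p between 0.0287 and 0.913 over all 20. NDUFS1 lies on the minus strand at chr2:206114817-206159509 and NDUFV1 on the plus strand at chr11:67605653-67612554.

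NDUFS3, a core subunit of the quinone module with no cluster of its own, fell. It had 98.2, 97.6 and 106.2 FPKM in BafA1 libraries against 129.25, 124.85 and 129.4 FPKM in control libraries (log2 change -0.34 ± 0.03 SE, adjusted p = 2.77e-06). Its groups did not overlap, and its change was close to that of NDUFS7.

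**Figure D2:**
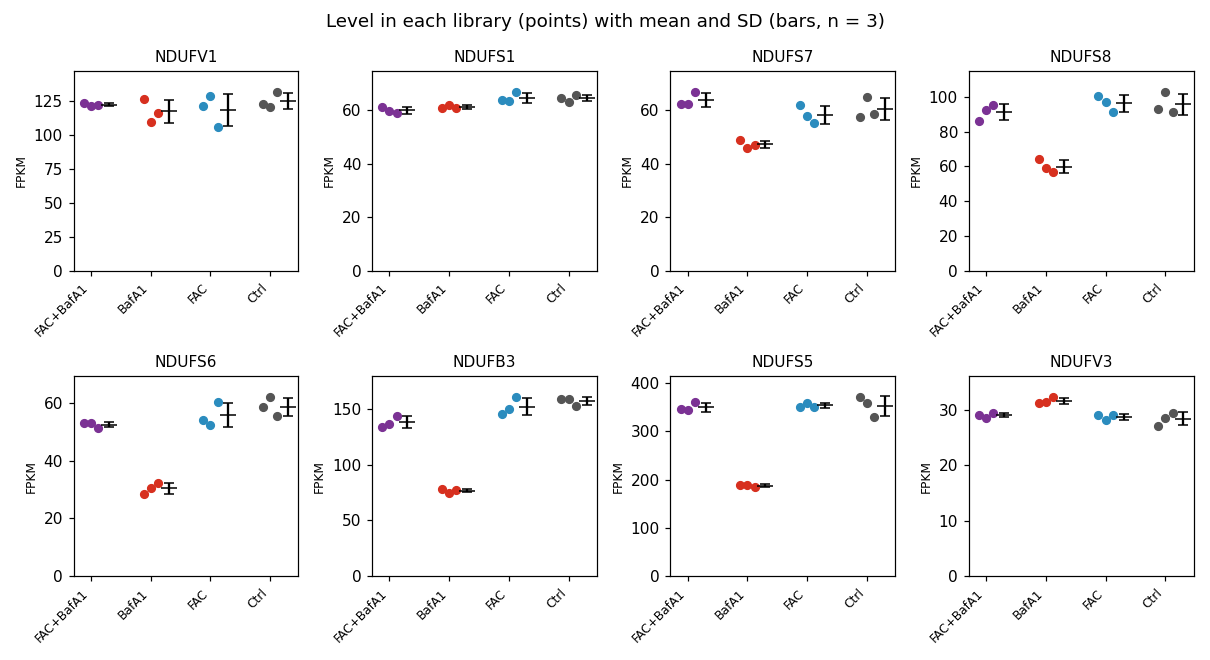
FPKM of 8 members in every library (points; 3 per group, groups from left to right FAC+BafA1, BafA1, FAC and control), with the mean and SD beside them. NDUFB3, NDUFS5, NDUFS6, NDUFS8 and NDUFS7 are low in the 3 BafA1 libraries, NDUFV3 is highest there, and NDUFS1 and NDUFV1 change little.

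Among the accessory subunits of the peripheral arm 7 of 9 fell and 1 rose, with a median log2 change of -0.44. NDUFS6, a zinc-binding subunit needed late in assembly (ENSG00000145494, chr5:1801407-1816048, plus strand), had 28.5, 30.6 and 32.1 FPKM in BafA1 libraries and 58.5, 61.9 and 55.4 FPKM in control libraries. Its BafA1 mean was 0.519 of its control mean, and the groups did not overlap (log2 change -0.92 ± 0.06 SE, adjusted p = 4.31e-08). NDUFA2 and NDUFA12 also fell, by 0.82 and 0.61 on the log2 scale. NDUFS4, whose loss is a known cause of Leigh syndrome, had 44.7, 49.8 and 44.1 FPKM in BafA1 libraries and 52.1, 50.35 and 47 FPKM in control libraries, which overlapped (log2 change -0.11 ± 0.05 SE, adjusted p = 0.0888, 95% interval -0.22 to 0.01). NDUFV3 (ENSG00000160194, chr21:42879644-42913304, plus strand) went the other way, with 31.35, 31.4 and 32.3 FPKM in BafA1 libraries and 27.1, 28.6 and 29.5 FPKM in control libraries. All 3 BafA1 values of NDUFV3 were above all 3 control values, it rose (log2 change 0.15 ± 0.04 SE, adjusted p = 0.00293), and the call held in all 20 other settings, with log2 changes of 0.12 to 0.22.

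All 20 accessory subunits of the membrane arm fell, with log2 changes of -1.03 to -0.29 and a median of -0.72. NDUFB3, a single-pass subunit (ENSG00000119013, chr2:201071433-201085750, plus strand), had 77.8, 74.85 and 76.9 FPKM in BafA1 libraries and 158.9, 158.7 and 152.7 FPKM in control libraries. It fell to 0.488 of its control mean, the largest change of any member (log2 change -1.03 ± 0.04 SE, adjusted p = 6.73e-10). NDUFS5 (ENSG00000168653, chr1:39026318-39034636, plus strand) had 188.4, 189.8 and 184.6 FPKM in BafA1 libraries and 370.4, 357.9 and 330.2 FPKM in control libraries. Its replicates differed by far less than its groups (log2 change -0.91 ± 0.04 SE, adjusted p = 1.16e-09). NDUFB7, NDUFB1, NDUFB4 and NDUFB10 followed, with log2 changes of -0.90, -0.86, -0.86 and -0.84. The smallest falls of this group were in NDUFB11 at -0.29, NDUFA10 at -0.30 and NDUFB9 at -0.30.

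Both remaining members fell by amounts near the middle of the set. NDUFAB1 had 119.3, 122.6 and 127.3 FPKM in BafA1 libraries against 190.6, 186.8 and 172.6 FPKM in control libraries (log2 change -0.57 ± 0.04 SE, adjusted p = 1.91e-07). NDUFA4 had 177.3, 176.4 and 176.7 FPKM in BafA1 libraries against 290.01, 267.05 and 263.3 FPKM in control libraries (log2 change -0.63 ± 0.04 SE, adjusted p = 5.24e-08). No overlap occurred in either, and the change of NDUFA4, a subunit of another complex, lay near the median of the set.

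Counted without a model, all 3 BafA1 values were below all 3 control values in 35 of 38 members, and above them in 1, against 38.3% and 30.4% of all tested genes. The summed level of the 38 members was 3278 ± 29.3 FPKM in BafA1 and 4968 ± 168 FPKM in control libraries (SD, n = 3 each), which was 0.544% of all FPKM in BafA1 and 0.77% in control libraries. The marker sums of other cell types moved too: the keratinocyte list summed to 0.77 to 1.33 FPKM in BafA1 libraries and 0.17 to 0.27 in control libraries, and the fibroblast list to 3.07 to 3.93 in BafA1 libraries and 4.99 to 7.2 in control libraries. Blood markers summed to 1.23 to 1.93 FPKM in BafA1 libraries and 0.99 to 1.96 in control libraries, and HEK293 markers to 899 to 906 in BafA1 libraries and 500 to 508 in control libraries. The part of these lists in the fall of the members was not tested.

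The members with the larger falls had short coding sequences, but some short members, such as NDUFS4 (525 bases, log2 change -0.11), changed little. Over the 38 members the log2 coding length and the BafA1 log2 change had a Pearson r of 0.75 and a Spearman rho of 0.72, given as a description across genes that share the same libraries. Over 11569 tested protein-coding genes the same r was 0.20 and rho 0.25. Coding sequences ran between 174 bases in NDUFB1 and 2181 bases in NDUFS1, with a median of 433 bases, against 1404 bases over all tested protein-coding genes. The 28 members of up to 600 bases had a median log2 change of -0.65, while the 1523 tested genes of that length had -0.30. The 10 longer members had a median of -0.34, while the 10046 longer genes had -0.02. Within both length classes the median change of the members was lower than that of all tested protein-coding genes, which include them. Lengths were not matched within a class. Role and length overlap, since most membrane arm subunits are short, and their parts in the change were not separated. FPKM divide by transcript length, and the part of that step was not tested. Levels were related as well, with r of -0.51 and rho of -0.43 between the log2 level in FAC libraries and the BafA1 change.

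**Figure D3:**
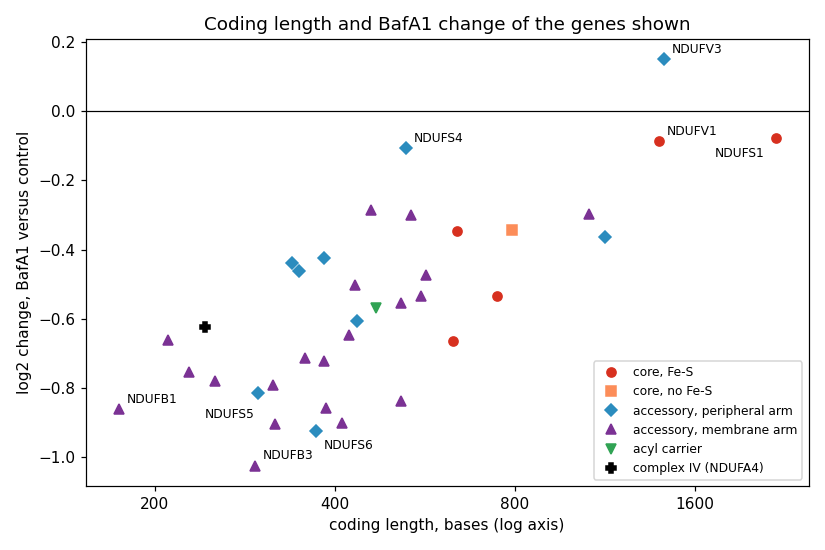
Coding length in bases (log axis) against the limma log2 change in BafA1 versus control libraries, 1 point for each of 37 members, with symbols by role. Short members such as NDUFB1, NDUFB3, NDUFS5 and NDUFS6 lie low and the long members NDUFS1, NDUFV1 and NDUFV3 lie near or above 0.

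Since most members moved together, their promoter sequences were searched for motifs of regulators of respiratory and stress genes. RefSeq's table of promoters (GRCh38.p14, 250 bases before to 50 after a gene's start, the start listed first where several are given) held 32 of the 38 members. Below are stretches upstream of that start for NDUFB3 and NDUFS6, among the 3 largest falls, and for NDUFV3, the only member that rose. They are chr2:201071751-201072000, chr5:1801157-1801333 and chr21:42893059-42893267, all on the plus strand. Bases that lie in an annotated exon of any gene (MRPL36 beside NDUFS6, an exon of NDUFV3 itself) were left out, and the starts used for NDUFB3 and NDUFV3 lie inside the annotated genes. Capitals mark letters of the 6 motifs searched.
NDUFB3: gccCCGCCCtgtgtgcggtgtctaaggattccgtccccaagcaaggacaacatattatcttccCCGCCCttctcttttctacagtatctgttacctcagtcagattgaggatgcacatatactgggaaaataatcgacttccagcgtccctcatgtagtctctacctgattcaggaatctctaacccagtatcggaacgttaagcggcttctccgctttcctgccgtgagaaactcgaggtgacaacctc
NDUFS6: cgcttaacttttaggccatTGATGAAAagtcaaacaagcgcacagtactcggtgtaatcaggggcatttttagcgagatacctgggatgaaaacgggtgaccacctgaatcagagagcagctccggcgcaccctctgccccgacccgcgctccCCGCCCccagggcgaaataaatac
NDUFV3: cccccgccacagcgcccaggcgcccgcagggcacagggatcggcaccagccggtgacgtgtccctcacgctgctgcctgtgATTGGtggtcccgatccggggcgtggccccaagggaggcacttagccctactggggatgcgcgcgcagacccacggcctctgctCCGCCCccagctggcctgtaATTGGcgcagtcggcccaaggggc
The capitals show 2 GC boxes in NDUFB3, a GC box and an amino acid response element in NDUFS6, and a GC box with 2 CCAAT boxes in NDUFV3.

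Over the full 300 bases and both strands, the motif of the nuclear respiratory factor NRF1 (half-site letters TGCGCA), a regulator of respiratory genes, was in 10 of 32 member promoters, or 31.2%, against 14.3% of the 9750 promoters of tested genes and 8.42% of all 27305. The YY1 motif (ATGGCG) was in 15, or 46.9%, against 19.2% and 11% of the same sets. NDUFS6 and NDUFV3 each had 1 YY1 match over the 300 bases, outside the stretch printed above. Matches before the start and after it were not counted apart. The SP1 GC box (GGGCGG) was in 20, or 62.5%, against 71.9% and 44.6%. An ETS motif (CCGGAAG) was in 5, or 15.6%, against 20.3% and 10.7%, and the CCAAT box (CCAAT) in 8, or 25%, against 37.3% and 35.7%. The amino acid response element (TGATGNAA) was in 1 member, NDUFS6, or 3.12%, against 1.52% and 3.67%. Matches of different motifs were counted separately even where their letters overlapped. NDUFV3, which rose, and NDUFB3, which fell most, both held GC boxes. A match is a run of letters and does not show a binding site.

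The iron salt was then present in both arms, and FAC+BafA1 was compared with FAC. Here 14 of 38 members fell and 0 rose, with 24 not called; over all tested genes 19.3% were called, 9.49% lower and 9.76% higher. At an unadjusted p under 0.05 in limma, 18 members were lower and 1 higher, beside 2220 lower and 2258 higher of all 13682 tested genes. The count of lower members was 9 without FAC+BafA1 replicate 1, 9 with no intensity trend and 7 with quantile normalization. The median log2 change of the members was -0.10, with a range of -0.28 to 0.13, and that of all tested genes 0.00. All 3 FAC+BafA1 values lay below all 3 FAC values in 20 members and above them in 1, NDUFS7, against 18.1% and 18.8% of all tested genes. The summed level of the 38 members was 4663 ± 47.9 FPKM in FAC+BafA1 and 5014 ± 66.8 FPKM in FAC libraries (SD, n = 3 each). Marker sums were 0.36 to 0.66 FPKM in FAC+BafA1 against 0.23 to 0.33 in FAC for keratinocytes, and 5.8 to 8.59 in FAC+BafA1 against 5.34 to 7.09 in FAC for fibroblasts. For blood they were 1.49 to 1.6 in FAC+BafA1 against 1.27 to 1.56 in FAC, and for HEK293 cells 731 to 736 in FAC+BafA1 against 487 to 499 in FAC. The keratinocyte and HEK293 sums did not overlap between these groups, while the fibroblast and blood sums did. The part of these lists was not tested.

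The 3 largest of these falls were NDUFA9, NDUFA7 and NDUFB4. NDUFA9, a nucleotide-binding subunit where the arms meet (chr12:4649095-4694317, plus strand), had 82.95, 86.4 and 90.5 FPKM in FAC+BafA1 libraries and 110.9, 102.8 and 103.5 FPKM in FAC libraries. These groups did not overlap (log2 change -0.28 ± 0.06 SE, adjusted p = 0.00613), and without iron the BafA1 change of the gene was of like size (log2 change -0.36 ± 0.06 SE, adjusted p = 0.00016). NDUFA7, in the peripheral arm, had 84.4, 96 and 93.8 FPKM in FAC+BafA1 libraries and 114, 108.25 and 99.75 FPKM in FAC libraries (log2 change -0.23 ± 0.07 SE, adjusted p = 0.0304). Its call was lost in 7 of 20 other settings. NDUFB4, in the membrane arm, had 131.3, 127.6 and 127 FPKM in FAC+BafA1 libraries and 147, 147.5 and 149.6 FPKM in FAC libraries. Its change was small but well beyond the spread (log2 change -0.20 ± 0.03 SE, adjusted p = 0.00166), and held in all 20 settings.

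In the core, NDUFV2, NDUFS1 and NDUFS3 fell with FAC present, each by less than 0.20 on the log2 scale. NDUFV2 had 80.7, 84 and 81.4 FPKM in FAC+BafA1 libraries against 92, 89.1 and 96.6 FPKM in FAC libraries (log2 change -0.17 ± 0.04 SE, adjusted p = 0.0144). NDUFS1 had 61.3, 59.8 and 58.8 FPKM in FAC+BafA1 libraries against 63.6, 63.4 and 66.7 FPKM in FAC libraries (log2 change -0.11 ± 0.03 SE, adjusted p = 0.0306), a call lost in 7 of 20 other settings. NDUFS3 had 120.1, 120.4 and 116.1 FPKM in FAC+BafA1 libraries against 129.6, 131.75 and 134.5 FPKM in FAC libraries (log2 change -0.15 ± 0.03 SE, adjusted p = 0.0107), with no overlap. NDUFS7 had 62.1, 62.4 and 66.7 FPKM in FAC+BafA1 libraries and 62, 57.7 and 55.25 FPKM in FAC libraries, not called (log2 change 0.13 ± 0.05 SE, adjusted p = 0.117). NDUFS8 had 85.9, 92.5 and 95 FPKM in FAC+BafA1 libraries and 100.7, 96.9 and 91.1 FPKM in FAC libraries, which overlapped (log2 change -0.08 ± 0.06 SE, adjusted p = 0.41). NDUFV1 overlapped as well (log2 change 0.05 ± 0.07 SE, adjusted p = 0.679).

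The 3 members that fell most without iron had log2 changes of -0.14 to -0.01 with it. NDUFS5 had 346, 344.15 and 361.2 FPKM in FAC+BafA1 libraries and 350.9, 359.4 and 351.3 FPKM in FAC libraries, which overlapped (log2 change -0.01 ± 0.04 SE, adjusted p = 0.853, 95% interval -0.10 to 0.07). NDUFS6 had 53.1, 53 and 51.5 FPKM in FAC+BafA1 libraries and 54.2, 52.5 and 60.4 FPKM in FAC libraries, also overlapping (log2 change -0.08 ± 0.06 SE, adjusted p = 0.374). NDUFB3 had 133.2, 136.5 and 143.9 FPKM in FAC+BafA1 libraries and 145.2, 149.97 and 160.15 FPKM in FAC libraries, a small called fall (log2 change -0.14 ± 0.04 SE, adjusted p = 0.0313) that was lost in 8 of 20 other settings. NDUFV3 was not called and its groups overlapped, with 29.1, 28.6 and 29.45 FPKM in FAC+BafA1 libraries and 29.15, 28.2 and 29.1 FPKM in FAC libraries (log2 change 0.01 ± 0.04 SE, adjusted p = 0.877). NDUFAB1 and NDUFA4 were not called, at log2 changes of -0.09 and -0.11 with adjusted p of 0.191 and 0.0846 in limma.

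**Figure D4:**
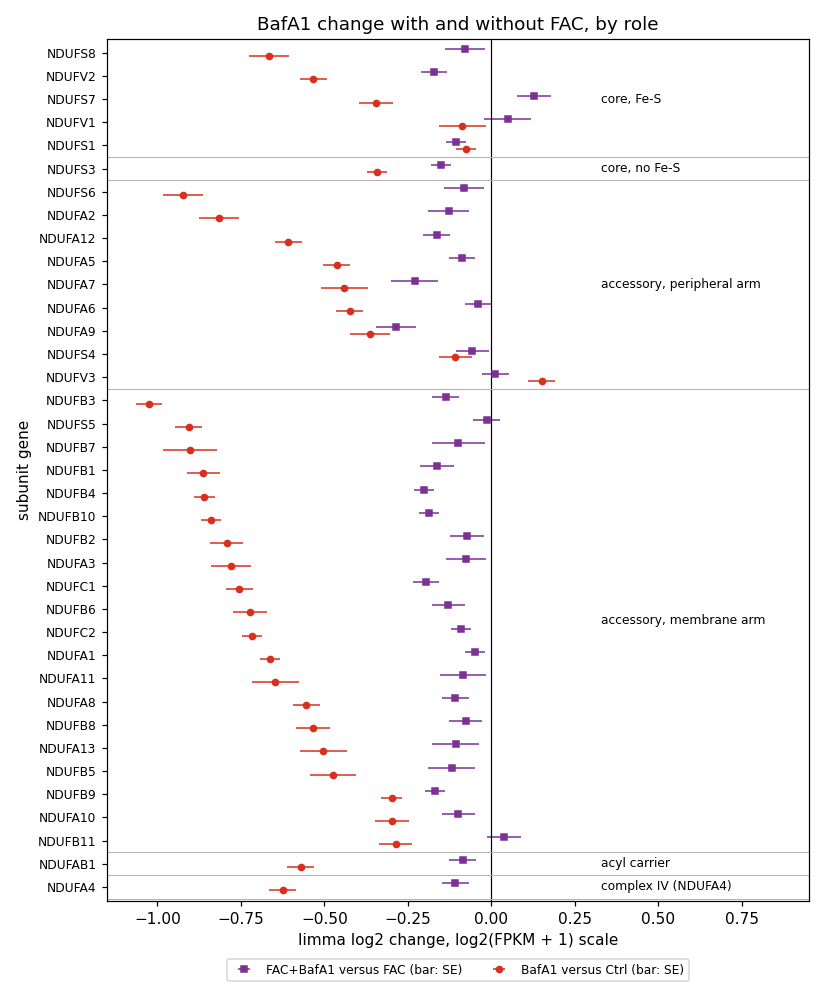
Limma log2 change with its SE for each of 37 members, by role, on the log2(FPKM + 1) scale: squares for FAC+BafA1 versus FAC and circles for BafA1 versus control. The circles spread between -1.03 and 0.15 while the squares stay between -0.28 and 0.13, and NDUFA9 and NDUFS1 are members whose 2 marks lie close together.

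The difference between the BafA1 change with iron and the BafA1 change without it was tested directly, as an interaction. It was positive, meaning a higher (less negative) change with FAC, in 32 of 38 members, negative in 1 (NDUFV3) and not called in 5 (NDUFS1, NDUFV1, NDUFS4, NDUFA7 and NDUFA9). Among all tested genes 50.1% were called, 29.5% positive and 20.6% negative, so 58.9% of the calls were positive, a share of 48.5% when libraries were scaled by median of ratios. The median interaction was 0.47 in the members and 0.06 in all tested genes. The BafA1 change was closer to 0 with FAC than without in 37 of 38 members and in 79.5% of all tested genes. All 20 membrane arm subunits were positive, with a median of 0.60, as were 3 of 5 iron-sulfur subunits and 5 of 9 accessory subunits of the peripheral arm.

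The largest differences were in the genes that fell most without iron, a fall measured in the same BafA1 and control libraries. NDUFB3 had an interaction of 0.89 ± 0.06 (SE, adjusted p = 2.04e-07), NDUFS5 of 0.89 ± 0.05 (adjusted p = 1.29e-07) and NDUFS6 of 0.84 ± 0.08 (adjusted p = 6.62e-06), all in limma. In the iron-sulfur group NDUFS8 reached 0.59 ± 0.08 (adjusted p = 0.000128), NDUFS7 0.47 ± 0.08 (adjusted p = 0.000275) and NDUFV2 0.36 ± 0.06 (adjusted p = 0.00034). NDUFS3 had a smaller value of 0.19, with an adjusted p of 0.00644 in limma, lost in 2 of 19 other settings. NDUFAB1 had 0.48 ± 0.06 and NDUFA4 0.52 ± 0.06, with adjusted p of 4.42e-05 and 1.68e-05 in limma. The negative value of NDUFV3, -0.14 ± 0.05 (adjusted p = 0.0418, limma), was lost in 13 of 19 other settings. For NDUFS1 the interaction was -0.03 with a 95% interval of -0.12 to 0.06, and for NDUFA9 it was 0.08 with an interval of -0.10 to 0.26. Across the 38 members the BafA1 change with FAC and the one without it had an r of 0.29 and a rho of 0.20, over genes of the same 12 libraries.

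The iron salt alone was compared with control. In FAC versus control 0 of 38 members were called in limma, against 9.56% of all tested genes (4.72% higher and 4.84% lower). At an unadjusted p under 0.05 there were 3 members higher and 0 lower, beside 1089 higher and 1168 lower of all 13682 tested genes. The median log2 change was 0.00, the range -0.09 to 0.17, and the 95% intervals of the 38 members ran between -0.22 and 0.32. The count of called members was 0 in all 20 other settings. The values of FAC and control libraries overlapped in 33 members, with 1 wholly below and 4 wholly above, against 10.5% and 9.88% of all tested genes. NDUFS8, as an example, had 100.7, 96.9 and 91.1 FPKM in FAC libraries and 92.8, 102.6 and 91.3 FPKM in control libraries. The summed level of the members was 5014 ± 66.8 FPKM in FAC and 4968 ± 168 FPKM in control libraries (SD, n = 3 each).

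FAC+BafA1 was also set against BafA1 and against control, comparisons that share libraries with those above and so are given by their own values. Against BafA1, 34 of 38 members were higher in FAC+BafA1 and 1 lower (NDUFV3), where 67.9% of all tested genes were called, 38.8% higher and 29.1% lower. Higher genes were 57.2% of these calls, and 49.7% with median-of-ratios scaling. The median log2 change was 0.48. All 3 FAC+BafA1 values were above all 3 BafA1 values in 34 members and below them in 1, against 40.4% and 30.8% of all tested genes. NDUFB3 had 133.2, 136.5 and 143.9 FPKM in FAC+BafA1 libraries and 77.8, 74.85 and 76.9 FPKM in BafA1 libraries, a ratio of means of 1.8. NDUFS1, NDUFV1 and NDUFS4 were not called. Against control, 15 of 38 members were lower in FAC+BafA1 and 0 higher in limma, where 32.9% of all tested genes were called, 16.6% lower and 16.2% higher. At an unadjusted p under 0.05 there were 17 members lower and 0 higher, beside 2906 lower and 2824 higher of all 13682 tested genes. The median log2 change against control was -0.09, with a range of -0.24 to 0.08. Without control replicate 1 the count of members called lower was 9. The groups of FAC+BafA1 and control did not overlap in 17 members, all below, against 23.3% of all tested genes below and 22.7% above.

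**Figure D5:**
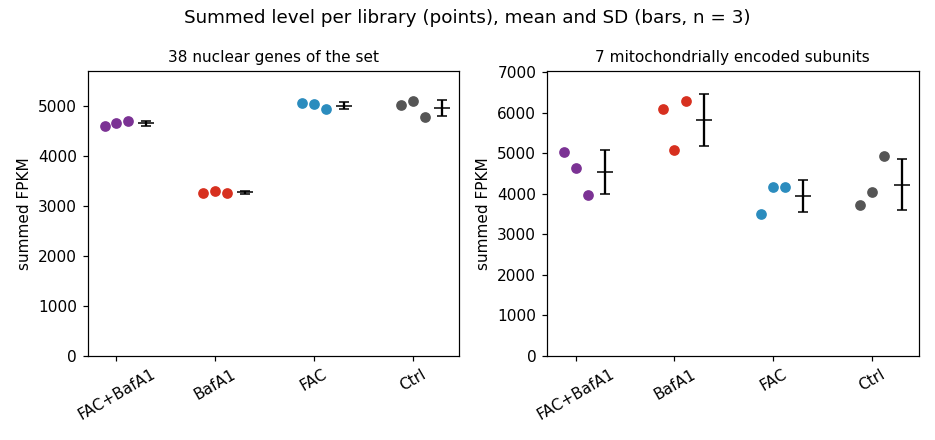
Summed FPKM per library of the 38 nuclear members and of the 7 mitochondrially encoded subunits, with the mean and SD of the 3 libraries per group (groups from left to right FAC+BafA1, BafA1, FAC and control). The nuclear sum is 3278 ± 29.3 in BafA1 and 4968 ± 168 in control, and the mitochondrial sum 5821 ± 638 in BafA1 and 4229 ± 621 in control.

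The 7 subunits encoded in mitochondrial DNA were not lower in BafA1. In BafA1 versus control 5 of 7 rose and 0 fell, with a median log2 change of 0.44, where 67.1% of all tested genes were called and 29.5% were higher. MT-ND3, a core membrane subunit, had 957.6, 951.8 and 1109.9 FPKM in BafA1 libraries and 730.04, 749.5 and 800.1 FPKM in control libraries. Its groups did not overlap (log2 change 0.40 ± 0.06 SE, adjusted p = 8.18e-05). MT-ND2, also in the membrane core, had 1091.3, 935.8 and 1187.5 FPKM in BafA1 libraries and 642.7, 692.4 and 879 FPKM in control libraries (log2 change 0.54 ± 0.12 SE, adjusted p = 0.00148), with a wider spread. MT-ND5 and MT-ND6 were not called, and over 20 other settings 4 to 7 of the 7 were. MT-ND4 and MT-ND4L overlap and were both counted. With iron present 0 of 7 were called in limma, against 19.3% of all tested genes, and the median log2 change was 0.27. In limma 1 of 7 was higher at an unadjusted p under 0.05, beside 2258 of all 13682 tested genes. The interaction was called in 1 of 7, MT-ND3, at -0.32 ± 0.09 (adjusted p = 0.00828, limma), and not in the other 6. Among all tested genes 50.1% were called, 20.6% negative. The summed level of the 7 was 4548 ± 540 FPKM in FAC+BafA1, 5821 ± 638 in BafA1, 3941 ± 390 in FAC and 4229 ± 621 in control libraries (SD, n = 3 each).

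Of 16 assembly factors, proteins that build complex I without staying in it, 9 fell and 0 rose in BafA1 versus control, with a median log2 change of -0.17. Over all tested genes 67.1% were called and 37.6% were lower, and over 20 other settings 7 to 10 of the 16 were lower and 0 to 2 higher. At an unadjusted p under 0.05 in limma 10 were lower and 1 higher, beside 5329 lower and 4194 higher of all 13682 tested genes. NDUFAF3, which helps to build the quinone module, had 73.2, 73.1 and 72.3 FPKM in BafA1 libraries and 109.6, 118.5 and 111.8 FPKM in control libraries (log2 change -0.63 ± 0.04 SE, adjusted p = 5.16e-08). NDUFAF1, which acts on the membrane arm, had 12.6, 13.5 and 12.8 FPKM in BafA1 libraries and 20.2, 21.1 and 20.55 FPKM in control libraries (log2 change -0.63 ± 0.04 SE, adjusted p = 8.61e-08). In neither gene did the groups overlap. NDUFAF8, chosen after its values were seen, had the largest fall of the list at a log2 change of -1.07. NUBPL, which delivers iron-sulfur clusters to the complex, fell by 0.38 on the log2 scale. With iron present 4 of 16 were lower and 0 higher in limma, against 9.49% of all tested genes called lower, and 5 were lower at an unadjusted p under 0.05. Of all 13682 tested genes 2220 were lower at that unadjusted p. The interaction was positive in 6 of 16 and negative in 0, where 29.5% of all tested genes were positive and 20.6% negative. At an unadjusted p under 0.05 there were 7 positive and 1 negative, beside 4493 positive and 3181 negative of all 13682 tested genes. NDUFAF3 had an interaction of 0.58 and NDUFAF1 of 0.47, with adjusted p of 7.1e-06 and 6.3e-05 in limma.

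Some member values could hold fragments of other genes. In GENCODE release 44, another annotated gene overlaps 24 of 38 members, 18 on the same strand and 19 on the opposite one with some on both, and no source used here gives the strand setting of the counting. Of 55 annotated pseudogene entries of the members, 38 were listed at 0 in every library and 3 reached 1 FPKM in any: NDUFA5P11 with at most 6.54 FPKM, NDUFB4P12 with at most 3.95 and NDUFV2P1 with at most 7.17. These are small beside the parent genes, but fragments shared between parent and copy could have been split by the counting.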

How the data were processed

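RNA was sequenced from 12 libraries of HEK293T cells, 3 in each of 4 groups. Per the labels' protocols a TruSeq stranded mRNA kit was used. The authors deposited 1 table of FPKM for 56340 gene entries. STAR and RSEM, with build GRCh38, are named per the submitters' processing notes; versions, annotation release and strand setting were not given in the sources used here. Among entries, 3 repeated an ID and were dropped, and 56104 of the 56337 distinct IDs matched the reference gene names. Positions, coding lengths and overlaps were read from GENCODE 44 (GRCh38), possibly another release than the authors'.

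A count model was not used on FPKM. Values were taken as log2(FPKM + 1) with a pseudocount of 1 and no further scaling, and 13682 genes averaging at least 1 FPKM were kept. Group means were fitted over all 12 libraries in limma 3.58.1 (R 4.3.3) with an intensity trend, with Benjamini-Hochberg adjustment over all tested genes within each of 6 contrasts. The threshold for a call was an adjusted p of 0.05. The procedure was tested on simulated data. Depth was estimated from genes of 700 to 2000 bases under 0.5 FPKM, with an assumed fragment of 150 bases; 51.4% to 54.8% of these values in libraries without FAC and 63.5% to 67% in those with it lay within 0.2 of a whole number of fragments, so no counts were recovered.

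Members and lists were chosen with earlier results of these data known. Genes given with values were the nuclear core subunits, NDUFAB1 and NDUFA4, the 3 largest called changes in each direction in BafA1 versus control, FAC+BafA1 versus FAC and the interaction, the highest and lowest member, and 2 genes each of the other lists by smallest adjusted p. NDUFS4 was also given with values, outside this rule. Other genes are given by level or log2 change. Alternatives were another pseudocount, other filters, median-of-ratios and quantile scaling, no trend, pairs of groups alone, a replicate term and leaving out each library. Protein sequences were not used here. Counts, medians and sums cover all 38 members, of which 1 is not reported here by itself.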

Additional observations from a re-analysis of the deposited data

Results flagged for a closer look

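The change with BafA1 differed between cells with and without FAC, by the limma interaction on the log2(FPKM + 1) scale, in the genes listed below. They are listed because their interaction was called, as it was in 50.1% of all 13682 tested genes. NDUFS1, NDUFV1, NDUFS4, NDUFA7, NDUFA9 and MT-ND2, also given with values above, were not called. Among core subunits the difference (with FAC minus without) was 0.59 in NDUFS8, 0.47 in NDUFS7, 0.36 in NDUFV2 and 0.19 in NDUFS3, the last being lost in 2 of 19 other settings. Among accessory subunits it was 0.89 in NDUFB3, 0.89 in NDUFS5, 0.84 in NDUFS6, 0.66 in NDUFB4 and -0.14 in NDUFV3, the last being lost in 13 of 19 other settings. NDUFAB1 had a difference of 0.48 and NDUFA4 of 0.52. The assembly factors NDUFAF3 and NDUFAF1 had differences of 0.58 and 0.47, and the mitochondrially encoded MT-ND3 had -0.32.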

How the results depend on the processing

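The median member change in FAC versus control, 0.00 with all libraries, took both signs, between -0.02 and 0.02; no other summary changed direction under the alternatives. The BafA1 versus control counts held (34 or 35 members lower, 1 higher), while their median was -0.49 with median-of-ratios scaling, -0.47 with quantile normalization and -0.60 to -0.54 with 1 library left out. The interaction median was 0.39 with median-of-ratios scaling and 0.40 with quantile normalization; its 1 negative call became 0 with no filter on low values, quantile normalization or no trend, and ranged over 0 to 1 with 1 library left out. In FAC+BafA1 versus FAC the members lower were 7 with quantile normalization (median -0.06), 9 with no trend and 9 to 15 with 1 library left out, the 9 being without FAC+BafA1 replicate 1. In FAC+BafA1 versus BafA1 the median was 0.41 with either scaling and 0.45 to 0.51 with 1 library left out, and 2 members were lower with median-of-ratios scaling. In FAC+BafA1 versus control 9 to 17 members were lower with 1 library left out. Deviations of same-numbered libraries from their group means had correlations of -0.07 to 0.14, and 5 of 12 libraries correlated best with their own number. Such values, from 3 libraries a group, cannot tell whether same-numbered libraries shared a culture or a batch. With a replicate block 34 members were lower in BafA1 versus control, 12 in FAC+BafA1 versus FAC, and 32 were positive in the interaction. Of values for single genes, 2273 had the same outcome as in the main setting, called or not called alike. Another 95 lost a call and 12 gained one, and the cause was not tested. Groups fitted alone could not give an interaction. With 3 libraries a group, the smallest member change called in BafA1 versus control was -0.08, in NDUFS1, a call lost in 13 of 20 other settings. Larger changes of -0.09 in NDUFV1 and -0.11 in NDUFS4 were not called, so -0.08 is not a limit of detection.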
